A study of Mus musculus with 2 samples.

Results

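The CC chemokines are small secreted proteins that draw monocytes, lymphocytes and other leukocytes into tissue. They were followed here as 10 mouse genes, Ccl2, Ccl3, Ccl4, Ccl5, Ccl6, Ccl7, Ccl9, Ccl12, Ccl17 and Ccl22, chosen as members of the family by name, with earlier results of these data known. All 10 had a probe set on the array, 1 each, out of 8220 named genes in all. A probe set is the group of short probes that together give 1 signal for a transcript.

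The arrays came from peritoneal macrophages of age-matched littermate mice, either Pac1-/- or Pac1+/+. Pac1 is the older name of Dusp2, a nuclear phosphatase that removes activating phosphates from MAP kinases. Cells of both genotypes were drawn to the peritoneum with 3% thioglycollate, purified by adherence for 2 hours and treated with 100 ng/ml LPS, the bacterial endotoxin, for 6 hours, a time that the submitters chose for inflammatory gene expression. There was 1 Affymetrix array per genotype, so no difference below has a replicate check and none was tested; untreated cells were not analysed here, so the values are levels after LPS and not inductions. The mice's age in weeks, their number, any pooling and the design of the Pac1 allele are not stated in the labels. The signals are MAS5 intensities in arbitrary units on a linear scale, and the number of arrays limits their precision.

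CC chemokines are named for a pair of adjacent cysteines near the start of the mature protein, and they act through G protein-coupled receptors of the CCR family. In macrophages, LPS engages Toll-like receptor 4, and NF-kB, MAP kinases and interferon signalling then switch on several of these genes. Ccl2, Ccl7 and Ccl12 encode monocyte attractants that act on the receptor CCR2. Ccl3 and Ccl4 (macrophage inflammatory proteins 1 alpha and 1 beta) and Ccl5 (RANTES) encode attractants of monocytes and T cells, and Ccl3 and Ccl5 act on CCR1. Ccl6 and Ccl9 are rodent chemokines that act on CCR1, and Ccl17 and Ccl22 attract T cells that carry CCR4.

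After LPS the family was near the wild-type level in the knockout cells, with Ccl6 as the member furthest from it. Ccl6 was 1.83-fold higher, Ccl12 was 1.42-fold lower, and the others with a measurable signal lay within 1.26-fold. Of the 10 genes, 9 gave signals above the floor on both arrays, and Ccl17 was below it on both. The floor was 36.4, the median of all signals, and genes with a signal above it on either array are called eligible. Of the 9 eligible members 0 were 2-fold higher, where 1.23% of the 5119 eligible genes were, and 0 were 2-fold lower, where 1.07% were (2.31% in either direction). At 1.5-fold, 1 member was higher, where 6.37% of eligible genes were, and 0 were lower, where 5.72% were (12.1% in either direction). The count of members 1.5-fold lower depended on the scaling. It was 1 (Ccl12) with equal medians or with scaling to the hybridisation controls, and 4 (Ccl3, Ccl4, Ccl12 and Ccl22) with scaling to actin and Gapdh. Log2 ratios of knockout over wild type were below 0 for 6 members and above 0 for 3, with a median of −0.12, and 47.8% of all eligible genes were below 0, with a median of 0.02.

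**Figure D1:**
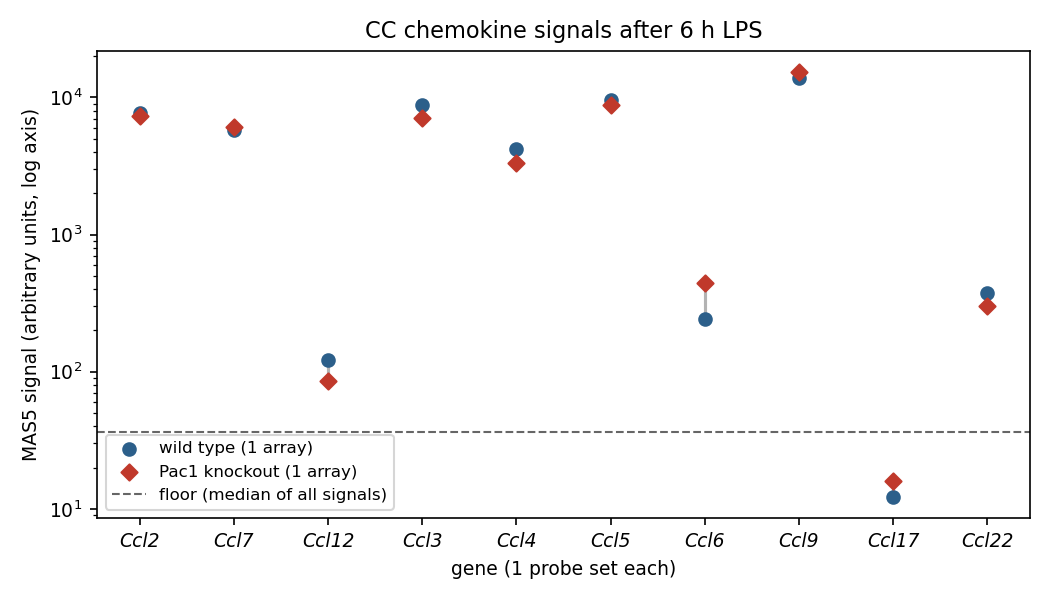
MAS5 signal of each CC chemokine gene on a log axis, 1 point for the knockout array and 1 for the wild-type array, with the floor of 36.4 as a dashed line. The points of a gene lie close together except for Ccl6 (445.5 in knockout cells and 243.4 in wild-type cells) and Ccl12 (85.2 and 120.8), and both points of Ccl17 lie under the floor. Heights of different genes are not comparable, because each probe set has its own sensitivity.

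The targeted gene, Dusp2, had a signal of 76.8 in knockout cells and 333.0 in wild-type cells, lower in the cells labelled knockout but still above the floor. Where its probes lie relative to the deleted part is not known here, so this is a partial check of the labels. All 10 listed macrophage markers were above the floor on both arrays on their brightest probe sets. Among them were Itgam at 356.4 against 301.4 and Csf1r at 1090 against 852.5 (knockout given first). The other probe sets of Cd68, Csf1r and Mpeg1 were below the floor. This alone does not check the macrophage label, since 6 of 7 B cell markers on the array were above the floor on both arrays too. The scavenger receptor gene Msr1 was 1.59-fold lower, with signals of 1366 and 2171, and a second probe set gave a log2 ratio of −0.30. Of the 10 macrophage markers 8 had log2 ratios above 0, with a median of 0.21 (−0.08 with scaling to actin and Gapdh). Their summed signal was 34979 in knockout cells and 31967 in wild-type cells. Their part in the chemokine ratios was not tested. In bulk cells a smaller share of chemokine-producing cells and less RNA per cell cannot be told apart.

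Among the CCR2 ligands, the signals of Ccl2 and Ccl7 were nearly equal between genotypes. Ccl2, the main attractant of inflammatory monocytes, had a signal of 7271 in knockout cells and 7730 in wild-type cells, a log2 ratio of −0.09, and 77.5% of eligible genes were at least as far apart. Ccl7, whose product attracts monocytes too, had a signal of 6118 in knockout cells and 5784 in wild-type cells, a log2 ratio of 0.08. That small excess turned negative when the arrays were given equal medians (−0.04), or scaled by quantiles (−0.01), to the hybridisation controls (−0.07) or to actin and Gapdh (−0.20). The array thus gives no settled direction for Ccl7.

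Ccl12, the mouse chemokine MCP-5, was the member with the lowest ratio. Its signal was 85.2 in knockout cells and 120.8 in wild-type cells, 70.5% of the wild-type level and a log2 ratio of −0.50. These signals were dim, and dim genes scattered more between the arrays. Among the 2376 eligible genes whose lower signal was at most 100, the central 95% of log2 ratios ran from −0.93 to 1.002, and the Ccl12 ratio lay inside that range. Over all eligible genes 8.13% had a ratio as low or lower.

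Ccl3, Ccl4 and Ccl5 were all below the wild-type level. Ccl3 had a signal of 7079 in knockout cells and 8793 in wild-type cells, a log2 ratio of −0.31. Ccl4, which lies beside Ccl3 on the chromosome, had 3317 and 4195, a log2 ratio of −0.34. The neighbouring pair thus stood at 80.5% and 79.1% of the wild-type signal. Ccl5, a chemokine for T cells and monocytes that is induced through interferon signalling as well as NF-kB, was closer to equality at 8775 against 9517, a log2 ratio of −0.12 and 92.2% of the wild-type signal.

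The differences of Ccl3 and Ccl4 were small in size but came from bright probe sets, where the arrays scattered less. For 6 members, Ccl2, Ccl3, Ccl4, Ccl5, Ccl7 and Ccl9, both signals were above 1000, as they were for 474 eligible genes in all. Over those 474 genes the central 95% of log2 ratios ran from −0.45 to 0.36 with a median of 0.03, and all 6 members lay inside it, between −0.34 and 0.15. In that bright class 2 of the 6 members, Ccl3 and Ccl4, were 1.2-fold or more lower, where 5.91% of the class were. The limit of 1.2-fold was chosen after these values were seen.

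**Figure D2:**
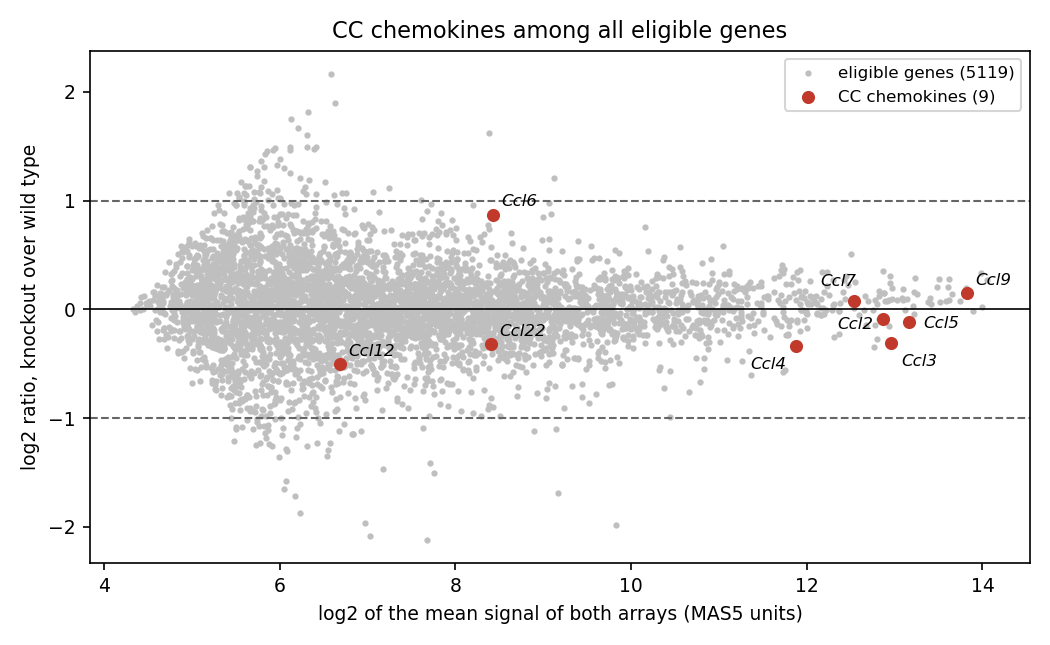
Log2 ratio of knockout over wild type against the log2 of the mean signal for the 5119 eligible genes (grey) and the 9 eligible CC chemokines (red), with dashed lines at 2-fold. The grey cloud narrows to the right, the 6 bright members lie within it between −0.34 and 0.15, and Ccl6 sits near its upper edge at 0.87.

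Ccl6 and Ccl9, which encode related CCR1 ligands found in rodents and lie next to each other on chromosome 11, were the members with the highest ratios. Ccl6, known as a chemokine of macrophages that interleukin-4 also induces, had a signal of 445.5 in knockout cells and 243.4 in wild-type cells, a log2 ratio of 0.87. Its ratio was the 105th highest of the 5119 eligible genes, and 2.05% had a ratio as high or higher. Among the 2269 eligible genes whose lower signal was above 100 and up to 1000, the central 95% of ratios ran from −0.66 to 0.59, so Ccl6 lay above that range. Ccl6 stayed at least 1.5-fold higher under all 12 alternative ways of processing, with log2 ratios from 0.59 to 0.88. Alternatives that changed only the floor or the probe set could not move this ratio. Ccl6 has a single probe set, and both its signals were above every floor.

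Ccl9, a chemokine that macrophages make in quantity, had a signal of 15292 in knockout cells and 13815 in wild-type cells, a log2 ratio of 0.15. It was above 0 under 10 of the 12 alternatives and at −0.01 and −0.14 when the arrays were scaled to the hybridisation controls or to actin and Gapdh. As for Ccl6, the alternatives that changed only the floor or the probe set could not move the ratio of Ccl9. The ratio of Ccl9 is thus not comparable in size with that of its neighbour Ccl6, and its probe set gives no settled direction.

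Ccl5, Ccl9, Ccl6, Ccl3 and Ccl4 follow each other in this order among the protein-coding genes of mouse chromosome 11, and their log2 ratios were −0.12, 0.15, 0.87, −0.31 and −0.34. The highest ratio of the family therefore lay between neighbours that were close to or below the wild-type level. Ccl2 and Ccl7 are adjacent in another stretch of the same chromosome, where Ccl11, Ccl12, Ccl8 and Ccl1 follow. Ccl22 and Ccl17 lie on chromosome 8 with the CX3C chemokine gene Cx3cl1 between them.

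Because these adjacent genes had different ratios, the 250 bases before the annotated gene start are given for Ccl6, Ccl9 and Ccl3. The sequences are from RefSeq (GRCm38.p6), 5′ to 3′ on the strand of the gene, and capitals mark matches to the motifs named after them.
Ccl6 (chr11:83593088-83593337, minus strand): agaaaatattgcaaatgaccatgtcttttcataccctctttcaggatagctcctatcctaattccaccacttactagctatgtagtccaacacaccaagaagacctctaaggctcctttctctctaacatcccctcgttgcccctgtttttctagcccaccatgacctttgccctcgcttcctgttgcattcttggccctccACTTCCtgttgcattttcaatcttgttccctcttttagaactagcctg
Ccl9 (chr11:83578637-83578886, minus strand): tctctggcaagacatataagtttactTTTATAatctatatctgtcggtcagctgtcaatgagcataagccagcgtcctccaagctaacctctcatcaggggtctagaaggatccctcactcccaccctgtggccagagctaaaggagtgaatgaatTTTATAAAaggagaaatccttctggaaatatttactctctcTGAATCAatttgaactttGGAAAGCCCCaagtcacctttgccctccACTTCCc
Ccl3 (chr11:83649379-83649628, minus strand): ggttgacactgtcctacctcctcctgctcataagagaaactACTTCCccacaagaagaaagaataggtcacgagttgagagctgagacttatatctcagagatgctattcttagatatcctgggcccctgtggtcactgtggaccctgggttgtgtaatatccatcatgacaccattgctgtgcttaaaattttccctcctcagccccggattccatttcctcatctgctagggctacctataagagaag

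Promoter sequences were matched for 6 of the 10 members, Ccl3, Ccl6, Ccl9, Ccl12, Ccl17 and Ccl22. Each of 4 motifs was searched on both strands. The TATA motif was searched as TATAAA. The AP-1 motif, which Fos and Jun proteins bind, was searched as TGANTCA. The NF-kB motif was searched by its consensus. The motif of the ETS family, which includes the macrophage factor PU.1, was searched as GGAAGT, and it was added after the sequences had been read. In the Ccl6 window the search found 1 match, an ETS match that starts 48 bases before the gene start. In the Ccl9 window it found 6, of which 3 were TATA matches, 2 of these overlapping each other, with 1 AP-1 match 53 bases, 1 NF-kB match 35 bases and 1 ETS match 7 bases before the start. In the Ccl3 window it found 1, an ETS match 209 bases before the start.

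Over the 32851 promoter windows of that table, 19.7% held the ETS motif, 6.75% the AP-1 motif, 7.25% the NF-kB motif and 12.4% the TATA motif. Of the 6 members with a sequence, 5 held the ETS motif (all but Ccl17), 2 the TATA motif (Ccl9 and Ccl12), 1 the AP-1 motif and 1 the NF-kB motif (both Ccl9). Because the ETS motif was added after these windows had been read, its 5 of 6 cannot be weighed against the 19.7%. A match is a description of the letters and not a site of binding. The best local alignment among the 15 pairs of these windows was between Ccl6 and Ccl9, with 16 of 17 bases identical around their ETS matches, from 59 to 43 bases before the start of Ccl6 and from 18 to 2 bases before that of Ccl9.

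Of the CCR4 ligands, Ccl22 was measured and Ccl17 was not. Ccl22, a product of macrophages and dendritic cells that attracts regulatory and type 2 helper T cells, had a signal of 300.6 in knockout cells and 374.9 in wild-type cells, a log2 ratio of −0.32 and 80.2% of the wild-type level. The central 95% of genes in its signal class ran from −0.66 to 0.59, and Ccl22 lay inside it. Ccl17 gave 16 in knockout cells and 12.3 in wild-type cells, both below the floor, so no fold is given.

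Dendritic cells are another source of Ccl17 and Ccl22. Per the labels, 92 to 95% of the adherent cells carried Mac-1, an integrin of macrophages that other myeloid cells also carry. Of 7 dendritic cell markers on the array 4 were above the floor, with a summed signal over all 7 of 1174 in knockout cells and 1183 in wild-type cells. Zbtb46 (6.9 and 9.3) and Ccr7 (28.1 and 14.5) were below the floor on both arrays. Of the eligible ones, Batf3 was at 83.9 and 109.8 (−0.39), Flt3 at 125.2 and 158.0 (−0.34, and 0.09 on its other probe set), and Xcr1 at 56.0 and 45.7 (0.29). Itgax, which macrophages share, was at 843.9 and 826.0 and makes up most of the sum. The part of such cells in the Ccl22 ratio was not tested.

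Among the other CC chemokines, 4 of 11 listed genes had a probe set of their own, and 2 were above the floor. Ccl8 had signals of 312.5 and 315.0, a log2 ratio of −0.01. Ccl1 was dim at 40.0 and 61.8 (−0.63) on its brighter probe set, 1.55-fold lower, and below the floor on its other one. Ccl11 and Ccl25 were below the floor on both arrays.

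The receptors that these ligands use were mostly dim in the macrophages. Of 13 CC chemokine receptor genes on the array 4 were eligible, and the 3 of them above the floor on both arrays were within 1.22-fold. Ccr1, the receptor of Ccl3, Ccl5, Ccl6 and Ccl9, had a signal of 460.5 in knockout cells and 548.4 in wild-type cells, a log2 ratio of −0.25. Ccrl2, a related receptor induced by LPS, was at 515.1 against 422.2 (0.29), the highest ratio among the 4. Ccr1l1 was at least 1.46-fold lower, with 53.2 in the wild type and a knockout signal below the floor (12.2), and Ackr4 was at 47.3 against 44.9 (0.08). Ccr2, the receptor of Ccl2, Ccl7 and Ccl12, gave 14.4 and 23.7, both below the floor, and so did Ccr4, the receptor of Ccl17 and Ccl22, with 11.1 and 10.4. With the floor at the 25th percentile or with no floor, 3 receptor genes were 2-fold apart, from signals that are below the floor used here on at least 1 array, and Ccr1l1 had a log2 ratio of −2.12.

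Of 7 eligible CXC, C and CX3C chemokine genes, 1 was 2-fold higher, where 1.23% of all eligible genes were, and 1 was 2-fold lower, where 1.07% were. Of the 9 eligible CC chemokines 0 were 2-fold apart, where 2.31% of all eligible genes were. The difference between the 2 lists was not tested. Cxcl5, a neutrophil attractant, was 2.76-fold lower, and Cxcl13, a B cell attractant, exceeded the wild type by at least 3.51-fold, since only its knockout signal of 127.9 was above the floor. For Cxcl2 the signals were 2796 and 4105 (−0.55). Cxcl1 had 2263 and 2948 (−0.38), and 1327 and 2115 on its other probe set (−0.67). Cxcl12 was at least 1.34-fold higher. The median log2 ratio of the 7 genes was −0.10, against −0.12 for the CC chemokines. With the floor at the 75th percentile it was −0.38, against −0.10 for the CC chemokines, and 0 of these genes were 2-fold apart, with Cxcl5 at −0.71. When only genes above the floor on both arrays were kept, Cxcl5 alone was 2-fold apart and the median was −0.38.

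**Figure D3:**
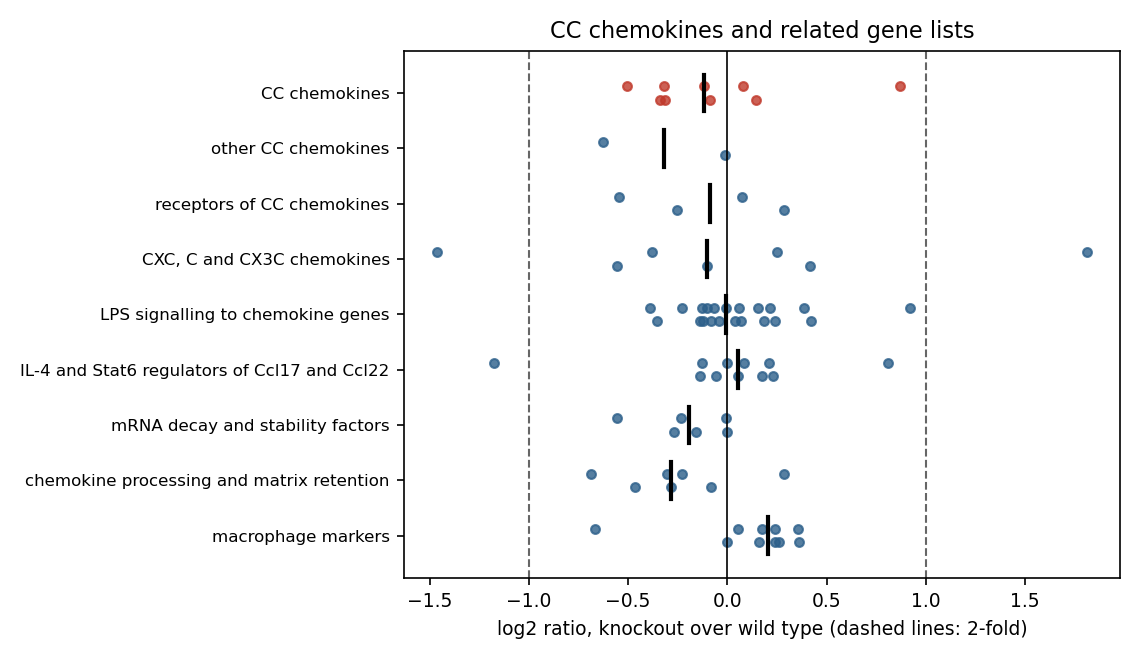
Log2 ratio of knockout over wild type for each eligible gene of the CC chemokines (red), of 7 related lists and of the macrophage markers (blue), with a black bar at each list's median and dashed lines at 2-fold. The CC chemokines lie between −0.50 and 0.87, inside the dashed lines, and the macrophage markers have a median of 0.21.

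Genes that carry the LPS signal to chemokine genes were near equality. Of 25 on the array 21 were eligible, 10 above and 11 below 0, with 0 of them 2-fold apart and a median of −0.01. That median ran from −0.29 (scaling to actin and Gapdh) to 0.03 (the floor at the 75th percentile) over the alternatives, and 1 gene was 2-fold apart with the floor at the 25th percentile and 3 with no floor. Cd14, the co-receptor for LPS, was at 8581 against 7270 (0.24). The NF-kB genes Rela (2275 against 2408, −0.08) and Nfkb2 (1007 against 1179, −0.23) were slightly lower, and Relb was lowest at 234.3 against 306.6 (−0.39), although its other, dimmer probe set went the other way, at 68.2 against 38.4 (0.83). Lbp, the LPS-binding protein gene, had the highest ratio, 150.5 against 79.5 (0.92). Irf7 was at 1476 against 1482 (−0.01), and Ifnb1 was below the floor on both arrays.

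Genes of the interleukin-4 and Stat6 route, which is known to raise Ccl17 and Ccl22, had 6 of 11 eligible members above 0 and a median of 0.06. That median was negative with 5 of the 12 alternatives, with the same median, with the mean over probe sets, without cross-hybridising probe sets, and with both control scalings. Il4ra was at 663.4 against 565.0 (0.23) and Stat6 at 228.9 against 251.7 (−0.14). The kinase gene Tyk2 was 2.26-fold lower, at 44.7 against 100.8, and Stat5b was 1.75-fold higher, at 80.3 against 45.9, both from dim probe sets. Irf4 was below the floor on both arrays.

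Factors that control the stability of chemokine mRNA had all 6 eligible members below 0 on their brightest probe sets, with a median of −0.20 and 0 of them 1.5-fold apart. Of all eligible genes 47.8% were below 0. Zfp36, the gene of tristetraprolin, which destabilises mRNAs with AU-rich elements, was at 1893 against 1898 and lay nearest to equality. Zfp36l1, a relative of it, was lowest at 76.8 against 112.9 (−0.56). Mapkapk2, the p38 target kinase that inhibits tristetraprolin, was at 3372 against 3758 (−0.16), but its other, dimmer probe set went the other way, at 80.1 against 54.9 (0.54). Elavl1, a stabilising factor, was at 550.8 against 662.8 (−0.27).

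Genes that cut chemokines or hold them in the matrix had 6 of 7 eligible members below 0 and a median of −0.28. Of all eligible genes 47.8% were below 0, with a median of 0.02. The 6 include Mmp8, which was dim at 42.7 in wild-type cells and below the floor in knockout cells (9.5). Mmp9, a gelatinase, was 1.61-fold lower at 51.3 against 82.6, and the syndecan gene Sdc4 was at 1836 against 2535 (−0.46). Mmp12, the macrophage elastase, which trims several CC chemokines, went the other way at 12748 against 10475 (0.28).

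The direction was the same under all 12 alternatives for 7 of the 9 eligible members, except that Ccl12 was below the floor at the 75th percentile and had no value there, and it changed for Ccl7 and Ccl9. For members above every floor, only the scaling and the pseudocount could change a ratio, since each member has a single probe set. Controls mattered for the overall level. The 6 hybridisation control probe sets of BioC, BioDn and Cre, bacterial and phage RNAs used to monitor the hybridisation, were 1.01-fold to 1.29-fold brighter on the knockout array, and the 3′ probe sets of actin and Gapdh were 1.23-fold and 1.205-fold brighter. Scaling to those references put 8 of the 9 members below 0, with medians of −0.27 (hybridisation controls) and −0.40 (actin and Gapdh), and moved the median of all eligible genes to −0.13 and −0.25. The brightest probe set of the actin gene Actb outside the controls went the other way. Its log2 ratio was −0.57, against 0.30 for the 3′ actin control. Relative to the median of all eligible genes, the family's median was lower by 0.10 to 0.24 on the log2 scale in every processing tried. A scaling factor moves members and other genes nearly alike, so such scalings could hardly change this difference. In the main processing the family's median is the ratio of Ccl5 alone.

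**Figure D4:**
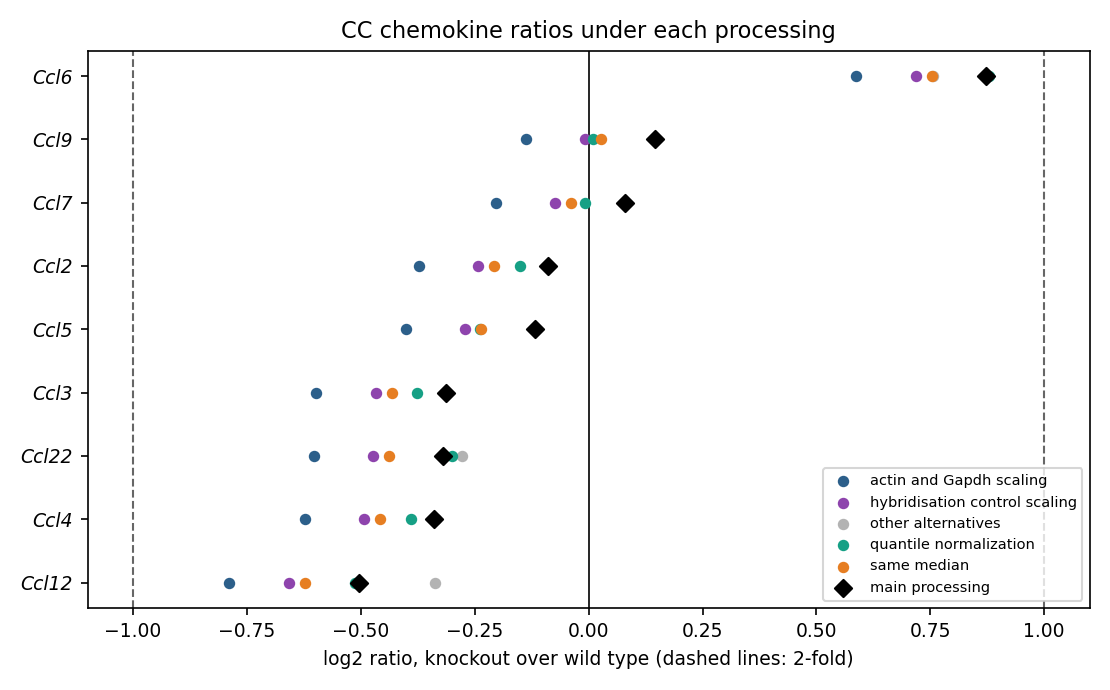
Log2 ratio of knockout over wild type for the 9 eligible CC chemokines under the main processing (black diamonds) and 12 alternatives (points), with dashed lines at 2-fold. Ccl6 stays between 0.59 and 0.88, Ccl7 and Ccl9 have points on both sides of 0, and the other 6 genes stay below 0.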

How the data were processed

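For each probe set the deposited table holds 1 linear intensity per array, which the authors computed with MAS5, per the submitters' processing notes, with no version named. Per the labels' protocols, 500 to 1000 ng of RNA was copied from a poly(T) primer and amplified, which weights the 3′ ends of transcripts. Both arrays had a 2% trimmed mean of 150.0, so they had been scaled alike. The array's platform annotation gave 1 symbol to 10276 of the 12654 probe sets, several to 363 (not used) and none to 1949, and 66 were controls.

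Signals were scaled to the same 2% trimmed mean, raised to the floor (the median of all signals) and expressed as log2 ratios of knockout over wild type. A gene took its probe set with the highest mean signal, and its fold is written "at least" where 1 signal was below the floor. Levels of different genes were not compared, apart from calling signals dim or bright. Signals were summed within marker lists, where the brightest probe sets weigh most. With 1 array per genotype no test was run. The code, Python 3.11.15 with pandas 2.3.3, was tested on simulated data. The 16 lists, 8 of them marker lists of cell types, and the members were chosen with earlier results of these data known. All members, Dusp2, genes 1.5-fold apart and list extremes were eligible for naming, and other list genes named were chosen after their values were seen. The 12 alternatives changed the scaling, the floor, the pseudocount or the probe set, and 2 of them, the control scalings, were chosen after seeing the data.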

Additional observations from a re-analysis of the deposited data

How the results depend on the processing

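The count of CC chemokines 2-fold apart was 0 under all 12 alternatives. Their median log2 ratio moved by over 0.25 only with scaling to actin and Gapdh, where it was −0.40, since that scaling lowers every ratio alike. The count of all eligible genes 2-fold apart, 118, was 820 with the floor moved to the 25th percentile, 10 with it at the 75th, 1546 with no floor, 64 when only genes above the floor on both arrays were kept, 32 with log2(signal + 50) and 188 with scaling to actin and Gapdh. The split of 63 higher and 55 lower became 43 and 86 with equal medians, 37 and 100 with the hybridisation controls and 27 and 161 with actin and Gapdh. Under the alternatives 98 single member ratios moved by at most 0.25 and 9 by more, all 9 with scaling to actin and Gapdh. Many of the 98 could not move, since changes of the floor or probe set leave members above every floor as they were. No paired analysis was possible because each genotype had 1 array.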

Other observations

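Markers of other leukocytes and of stroma that a lavage can hold were mostly dim. Of 5 eligible neutrophil markers Camp was at 85.7 in knockout cells and 61.9 in wild-type cells (log2 ratio 0.47), S100a9 was at 41.2 against a signal below the floor, and S100a8 was at 367.3 against 385.8. Csf3r was at 315.4 against 408.0 (−0.37), with its other probe sets at −0.23 and 0.28, while Ly6g (12.6 and 5.0) and Mpo (12.3 and 14.9) were below the floor. Of 8 mast cell and basophil markers 4 were eligible, with Tpsb2 1.66-fold higher (192.4 against 115.9) and Hdc 1.36-fold lower (555.5 against 756.7). Prg2 was the 1 eligible eosinophil marker, at least 2.75-fold higher, and Epx and Ccr3 were below the floor. B cell markers went both ways, with Ighm 1.87-fold lower, Ms4a1 1.67-fold lower and Cd79a at least 2.75-fold higher. Cd3d, Cd3e and Cd3g were below the floor. Of 2 eligible T and NK cell markers, Il7r was at 854.5 against 934.4 (−0.13). Cd4 was at least 2.05-fold lower, from 74.5 in wild-type cells and a knockout signal below the floor (32.8). Of 7 eligible mesothelial and stromal markers, 5 had log2 ratios below 0, where 47.8% of all eligible genes did, with a median of −0.30. Acta2 was 2.55-fold lower, Pdgfra 1.83-fold lower (235.6 against 432.2), and Col1a1 was at 374.3 against 514.2 (−0.46). Col3a1 (−0.30) and Upk3b (−0.23) were lower too, from dim probe sets. The 2 above 0 were Dcn at 318.1 against 246.8 (0.37) and Col1a2 at 246.3 against 231.7 (0.09). Acta2 was dim, and with the floor at the 75th percentile its log2 ratio was −0.04. Their part in the chemokine ratios was not tested.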
